A study of Mus musculus with 6 samples.

Results

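The nuclear genes for subunits of the oxidative phosphorylation complexes were described in cultured cell pools that were knockout (KO) or wild type (WT) for Myo1e, which encodes myosin 1e, a single-headed actin motor. The cells were 4T1, a line from a mammary tumour of the mouse. Members were taken by symbol: the Nduf subunit genes, the 4 Sdh genes, Uqcr genes and Cyc1, Cox4 to Cox8 genes with a form letter, and Atp5 genes, pseudogenes left out. That gave 77 of the 11452 genes in the deposited table, with 36 in complex I, 4 in complex II, 9 in complex III, 11 in complex IV and 17 in complex V. Each genotype had 3 libraries, which the table numbers 1, 2 and 4, and they are named here by genotype and number, as KO 4 or WT 4. All 6 libraries share the 4T1 line, and the sources used here do not say how the knockout was made, whether the pools were clonal or how they were treated. The symbol rule leaves out Cox4i1, Ndufab1, Cycs and Atpif1, which are given further on beside the members.

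Oxidative phosphorylation takes place in the inner mitochondrial membrane. Complexes I and II pass electrons from NADH and succinate to ubiquinone, complex III passes them to cytochrome c, and complex IV passes them to oxygen. Complexes I, III and IV pump protons, and complex V, the ATP synthase, uses the proton gradient to make ATP. Most subunits are encoded in the nucleus and imported, while the mitochondrial genome encodes core subunits of every complex but II. The transcription factors NRF1, the ETS family member GABPA and YY1 are known to act at many of the nuclear promoters.

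These genes differed more between library numbers than between genotypes. In the libraries numbered 4, 50 of the 76 members tested were lower than in those numbered 1 and 2 and 5 were higher, whereas 33.8% of all 11269 genes tested were lower and 31.8% were higher. The median member was lower by 0.32 on the log2 scale. Between KO and WT, 0 members passed the threshold of 0.05 on the adjusted p, as did 0% of all genes. The KO mean was nevertheless below the WT mean for 67 of 76 members, a share of 88.2% against 52.9% of all genes, with a median difference of -0.06 on the log2 scale. By library number, 69 members were lower in KO 4 than in WT 4, 41 in KO 1 than in WT 1 and 48 in KO 2 than in WT 2.

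Sequencing depth was similar, at 17772003 to 19988206 reads per library recovered from the deposited values. Members held 0.890% to 1.04% of the reads in KO libraries and 0.943% to 1.06% in WT libraries, with the lowest share of each genotype in its library numbered 4. KO 4 and WT 4 scored 48.4 and 49.3 on the first principal component of all genes, which took up 83.8% of the variance, against scores of -27.7 to -20.4 for the remaining libraries. Myo1e had log2 CPM 6.87, 6.81 and 6.81 in KO 1, KO 2 and KO 4, against 7.09, 7.02 and 6.91 in WT 1, WT 2 and WT 4. The 2 genotypes did not overlap, but the limma adjusted p of the difference was 0.9999, so transcript level gave no check of the labels beyond that order. Of 8 mammary epithelial markers 7 were in the table, with Krt5 the one that was not, and their log2 CPM was 4.54 to 10.45. Of markers of other cells, Pdgfra and Postn of 8 fibroblast genes and Cd68 of 8 leukocyte genes were in the table, and 0 of 5 endothelial and 0 of 5 muscle genes. Over the libraries, log2 CPM was 2.99 to 3.61 for Pdgfra, 4.46 to 6.08 for Postn and 2.01 to 2.99 for Cd68. Postn thus reached the range of the epithelial markers.

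The promoters of 6 members on which the results turn are shown first. They are the 3 genes for subunit c of ATP synthase, which encode the same mature protein from separate loci, and Atp5k, Uqcrh and Uqcr11. Atp5k had the largest drop of all members tested in the libraries numbered 4. Uqcrh and Uqcr11 had the largest drops among members whose promoter holds the ETS core described below. Their match to that core was thus set by the choice. Each run is the 250 bases before the transcription start, 5′ to 3′ on the gene's strand, from RefSeq, build GRCm38.p6. Capitals mark a match to the NRF1 core GCGCATG or the ETS core CCGGAAG on either strand, and the core of YY1, AAGATGG, was searched too.
Atp5g1, chr11:96075632-96075881, minus strand: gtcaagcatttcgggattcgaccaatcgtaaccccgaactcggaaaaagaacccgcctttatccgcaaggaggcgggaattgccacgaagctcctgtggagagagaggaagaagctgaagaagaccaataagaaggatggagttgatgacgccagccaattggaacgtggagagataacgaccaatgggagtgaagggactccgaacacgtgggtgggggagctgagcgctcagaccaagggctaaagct
Atp5g2, chr15:102671048-102671297, minus strand: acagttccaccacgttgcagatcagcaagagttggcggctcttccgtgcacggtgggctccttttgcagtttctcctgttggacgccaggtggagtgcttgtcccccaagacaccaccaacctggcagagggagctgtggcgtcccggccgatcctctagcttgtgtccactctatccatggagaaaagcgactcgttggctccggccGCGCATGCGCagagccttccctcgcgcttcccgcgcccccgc
Atp5g3, chr2:73911327-73911576, minus strand: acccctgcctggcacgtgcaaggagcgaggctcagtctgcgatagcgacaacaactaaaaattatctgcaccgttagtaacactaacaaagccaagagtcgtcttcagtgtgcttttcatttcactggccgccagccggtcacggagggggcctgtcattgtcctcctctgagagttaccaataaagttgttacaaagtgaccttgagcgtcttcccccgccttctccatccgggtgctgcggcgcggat
Atp5k, chr5:108434400-108434649, minus strand: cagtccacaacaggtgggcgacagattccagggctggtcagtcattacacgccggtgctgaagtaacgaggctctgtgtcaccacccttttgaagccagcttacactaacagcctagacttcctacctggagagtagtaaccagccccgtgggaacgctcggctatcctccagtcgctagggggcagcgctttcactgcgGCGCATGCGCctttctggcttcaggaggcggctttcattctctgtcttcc
Uqcrh, chr4:116075071-116075320, minus strand: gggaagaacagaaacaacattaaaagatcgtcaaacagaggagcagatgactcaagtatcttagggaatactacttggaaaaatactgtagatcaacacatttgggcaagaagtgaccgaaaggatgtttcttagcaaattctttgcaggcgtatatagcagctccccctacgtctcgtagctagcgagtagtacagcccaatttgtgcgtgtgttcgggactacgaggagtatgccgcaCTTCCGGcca
Uqcr11, chr10:80406822-80407071, minus strand: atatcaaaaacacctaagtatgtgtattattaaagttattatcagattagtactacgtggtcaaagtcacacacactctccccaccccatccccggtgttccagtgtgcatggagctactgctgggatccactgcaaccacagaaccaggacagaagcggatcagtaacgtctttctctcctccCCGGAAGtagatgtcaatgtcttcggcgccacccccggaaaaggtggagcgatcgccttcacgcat
In Atp5g2 and Atp5k the NRF1 core occurred on both strands in overlap, with first bases 42 and 39 bases before the start in Atp5g2 and 50 and 47 in Atp5k. An ETS core began 10 bases before the start in Uqcrh and 66 in Uqcr11, and Atp5g1 and Atp5g3 held none of the 3 motifs in this window. Promoters were listed for 64 of the 77 members and for 8944 genes tested. The NRF1 core was in 15.6% of member promoters and 6.27% of all, the ETS core in 17.2% and 15.2%, and the YY1 core in 0 of 64 members and 4.39% of all. All 11 members with an ETS core were among the 42 with a promoter that were lower in the libraries numbered 4, and 0 of the other 22 had it. For the NRF1 core the counts were 6 of 42 and 4 of 22. Of the members with an ETS core, Cox6a1 and Atp5e were called lower near the threshold, at limma adjusted p = 0.0302 and 0.0422. The same split was not counted over all genes. These matches are descriptions of letters in a window and were not tested for a link to the levels.

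Complex V held the largest difference of all members tested. Its membrane subunits, small proteins around the proton channel and in the contacts that hold ATP synthase dimers together, were lower in the libraries numbered 4 in 5 of 5 genes, with a median of -0.88. Atp5k, the e subunit, had log2 CPM 4.35 in KO 4 and 4.34 in WT 4, against 5.84, 5.82, 5.71 and 5.93 in KO 1, KO 2, WT 1 and WT 2. Both libraries numbered 4 were below the other 4, KO and WT were alike within them, and the difference was -1.48 (SE 0.08, adjusted p = 5.6e-07) with limma, a level 0.358 times that of the others. Atp5md, whose product is also known as DAPIT, had log2 CPM 5.37 in KO 4 and 5.73 in WT 4, against 6.42, 6.47, 6.44 and 6.55 in KO 1, KO 2, WT 1 and WT 2. The groups did not overlap for this gene, with a difference of -0.92 (SE 0.08, adjusted p = 1.01e-05) in the same limma fit. The other 3 membrane genes, Atp5j2, Atp5mpl and Atp5l, differed by -0.88, -0.66 and -0.50.

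Within complex V, the genes of the catalytic F1 part had the smallest median difference, -0.14. Atp5b, the catalytic beta subunit, had log2 CPM 10.80 in KO 4 and 10.84 in WT 4, against 10.83, 10.88, 10.85 and 10.93 in KO 1, KO 2, WT 1 and WT 2. KO 4 was the lowest library and WT 4 lay above KO 1, so the groups overlapped, and the difference of -0.05 (adjusted p = 0.484) did not pass the limma threshold, while under quantile normalization it turned to 0.23 and was called higher. Atp5c1, the gamma subunit of the rotating shaft, had a difference of -0.13 (adjusted p = 0.169) in the same fit, and of -0.18 with adjusted p = 0.0202 without WT 1. Of the 5 F1 genes 2 were lower, among them Atp5a1, the alpha subunit, at -0.32. All 4 peripheral stalk genes, which hold the catalytic head still against rotation, were lower, with Atp5j lowest at -0.68 and a median of -0.41.

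The 3 genes for subunit c, which forms the rotating ring of the proton channel, did not move together. Atp5g3 had log2 CPM 6.52 in KO 4 and 6.70 in WT 4, against 7.69, 7.79, 7.76 and 7.83 in KO 1, KO 2, WT 1 and WT 2. Its 2 libraries numbered 4 lay below the others without overlap, with a difference of -1.16 (SE 0.06, adjusted p = 5.16e-07) in the limma fit. Atp5g1 had log2 CPM 5.91 in KO 4 and 6.06 in WT 4, against 6.08, 6.33, 6.16 and 6.26 in KO 1, KO 2, WT 1 and WT 2. These groups came close without overlapping, at 6.06 in WT 4 and 6.08 in KO 1, with a difference of -0.22 (adjusted p = 0.0337). That call was lost in the limma fits without KO 2, KO 4, WT 2 or WT 4, at adjusted p = 0.0709, 0.3, 0.0537 and 0.064. Atp5g2 had log2 CPM 5.53 in KO 4 and 5.58 in WT 4, against 5.46, 5.60, 5.55 and 5.66 in KO 1, KO 2, WT 1 and WT 2. Its groups overlapped and the difference of -0.01 (adjusted p = 0.892) did not pass. Atp5g3 exceeded Atp5g2 by 0.99 and 1.12 on the log2 CPM scale in KO 4 and WT 4, against 2.24, 2.20, 2.21 and 2.17 in KO 1, KO 2, WT 1 and WT 2. Summed over the 3 genes, subunit c had 198 and 218 CPM in KO 4 and WT 4, against 319, 350.4, 335 and 355 CPM in KO 1, KO 2, WT 1 and WT 2. The share of Atp5g3 in that sum was 46.3% and 47.6% in KO 4 and WT 4 and at least 63.3% in each of the others. Transcript sequence is a limit here: 100.0% of the 50-base words of the Atp5g2 transcript and 56.2% of those of Atp5g1 occur in another gene, such as a pseudogene, and 0% of those of Atp5g3.

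**Figure D1:**
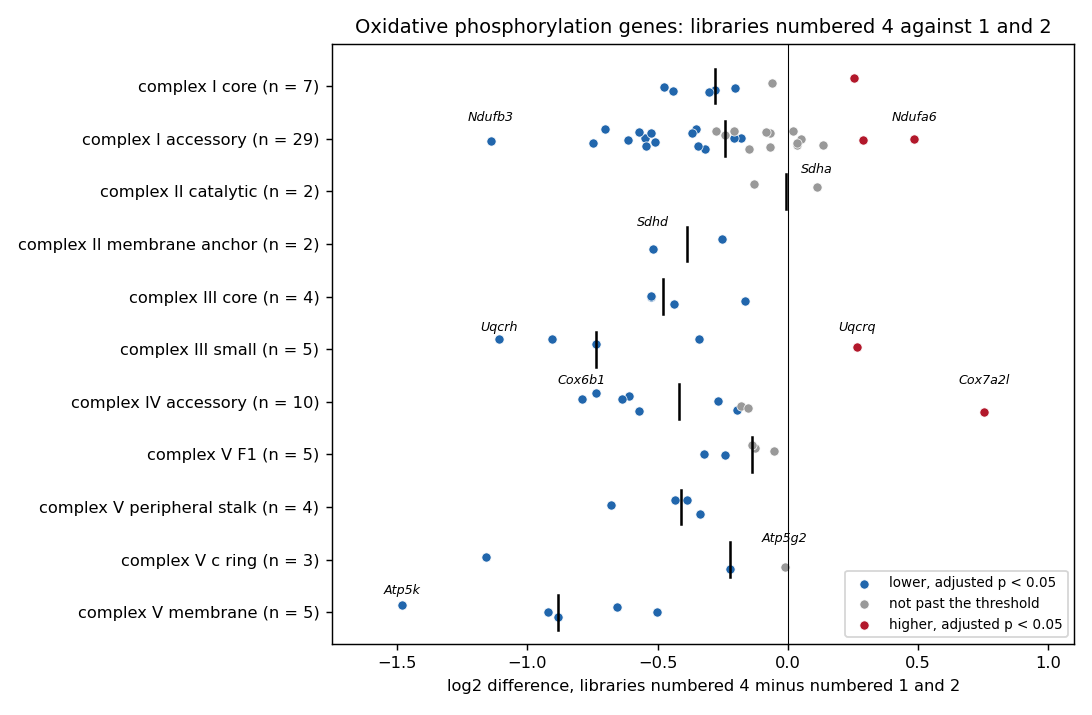
Each point is 1 of the 76 members tested, placed by its log2 difference between the libraries numbered 4 (KO 4 and WT 4) and those numbered 1 and 2, with rows for complexes and roles, black bars for row medians and colours for the limma call. The 5 membrane genes of complex V are all lower, with Atp5k at -1.48, whereas Cox7a2l, Ndufa6, Uqcrq and Ndufv3 are among the 5 higher members.

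Complex III was the one in which every member passed the threshold, with 8 of 9 lower and a median of -0.52. Its core genes were lower in 4 of 4. Cyc1, cytochrome c1, had log2 CPM 6.53 in KO 4 and 6.64 in WT 4, against 7.06, 7.10, 7.09 and 7.20 in KO 1, KO 2, WT 1 and WT 2, without overlap and with a difference of -0.53 (SE 0.05, adjusted p = 3.17e-05). Uqcrfs1, the Rieske iron-sulfur protein that takes electrons from ubiquinol, had log2 CPM 6.38 in KO 4 and 6.46 in WT 4, against 6.80, 6.82, 6.88 and 6.93 in KO 1, KO 2, WT 1 and WT 2. That difference was -0.44 (SE 0.05, adjusted p = 6.41e-05) in the limma fit, again without overlap. Among the small subunits the spread was wider, from -1.11 to 0.26. Uqcrh, the acidic hinge protein that aids the contact of cytochrome c1 with cytochrome c, had log2 CPM 5.39 in KO 4 and 5.68 in WT 4, against 6.64, 6.68, 6.59 and 6.67 in KO 1, KO 2, WT 1 and WT 2. KO 4 and WT 4 were both below all others, with a difference of -1.11 (SE 0.08, adjusted p = 3.01e-06). Uqcr11, a small accessory subunit, and Uqcrb, a ubiquinone-binding subunit, differed by -0.90 and -0.74. Uqcrq was the exception, with log2 CPM 6.70 in KO 4 and 6.93 in WT 4, against 6.52, 6.50, 6.58 and 6.60 in KO 1, KO 2, WT 1 and WT 2. Both libraries numbered 4 were above the rest for Uqcrq, at 0.26 (adjusted p = 0.0026) in the limma fit, which became 0.19 with adjusted p = 0.0679 without WT 4.

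In complex IV, the cytochrome c oxidase, 7 of the 10 members tested were lower, 1 was higher and 2 did not pass. Cox6b1, which links the monomers of the dimeric enzyme, was the lowest, with log2 CPM 5.87 in KO 4 and 6.10 in WT 4, against 6.76, 6.79, 6.70 and 6.85 in KO 1, KO 2, WT 1 and WT 2. Its groups did not overlap and the difference was -0.79 (SE 0.07, adjusted p = 1.23e-05). The related genes Cox7a2 and Cox7a2l went opposite ways. Cox7a2, a structural subunit of the enzyme, had log2 CPM 6.10 in KO 4 and 6.20 in WT 4, against 6.73, 6.88, 6.68 and 6.86 in KO 1, KO 2, WT 1 and WT 2. Cox7a2l, known to join complexes III and IV in supercomplexes, had log2 CPM 7.37 in KO 4 and 7.53 in WT 4, against 6.58, 6.72, 6.75 and 6.73 in KO 1, KO 2, WT 1 and WT 2. The limma differences were -0.64 (adjusted p = 5.56e-05) for Cox7a2, lower, and 0.75 (adjusted p = 5.43e-06) for Cox7a2l, higher, and neither gene's groups overlapped. Cox7a2l was thus above Cox7a2 by 1.27 and 1.32 on the log2 CPM scale in KO 4 and WT 4, whereas the same difference was -0.15, -0.16, 0.06 and -0.13 in KO 1, KO 2, WT 1 and WT 2. Cox8a, a small membrane subunit, and Cox6a1, the form of subunit 6A found in most tissues, differed by -0.15 (adjusted p = 0.0549) and -0.20 (adjusted p = 0.0302) in the limma fit. Without WT 1, Cox8a was called lower, at -0.19 with a limma adjusted p of 0.0139. The call of Cox6a1 was lost in the limma fits without KO 2, KO 4, WT 2 or WT 4, at adjusted p = 0.0816, 0.286, 0.0584 and 0.0573.

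Cox6a2, the form of subunit 6A known from heart and skeletal muscle, did not pass the filter of log2 CPM 0 in 3 libraries because it reached that level in the libraries numbered 4 alone. It had 76 reads in KO 4 and 68 in WT 4, against 3, 3, 5 and 0 reads in KO 1, KO 2, WT 1 and WT 2. As log2 CPM these were 1.89 and 1.88, against -2.27, -2.15, -1.68 and -4.25, the last being the value of 0 reads. Its counts in the libraries numbered 1 and 2 were near 0 reads, so no p-value is given for it. The muscle markers Ckm, Acta1, Myh4, Des and Tnnt3 were not in the table. Cox6a2 lies on chromosome 7 at 128205435 to 128206387, minus strand, GRCm38, and overlaps Itgad on the opposite strand, and 3.33% of the 50-base words of its transcript are shared with Itgad. The sources used here give no strand setting for the counting, so how reads were assigned where these genes overlap is not known.

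Complex I had calls in both directions. Of its 36 genes 20 were lower, 3 were higher and 13 did not pass, with a median of -0.26. The 7 core genes carry the flavin, the iron-sulfur clusters and the quinone site. Ndufs1, the largest of these subunits, had log2 CPM 7.03 in KO 4 and 7.01 in WT 4, against 7.25, 7.31, 7.31 and 7.34 in KO 1, KO 2, WT 1 and WT 2. It was lower by limma, at -0.28 (adjusted p = 0.00108), without overlap. Ndufv1, which binds the flavin and NADH, did not pass, at -0.06 (adjusted p = 0.391) in that fit.

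Of the 29 accessory genes of complex I, 15 were lower and 2 were higher. Ndufb3, a membrane-arm subunit, had log2 CPM 4.31 in KO 4 and 4.54 in WT 4, against 5.60, 5.61, 5.52 and 5.53 in KO 1, KO 2, WT 1 and WT 2, with both libraries numbered 4 below the others and a difference of -1.14 (SE 0.08, adjusted p = 3.97e-06). Ndufa5, of the matrix arm, differed by -0.75 (adjusted p = 3.91e-05) in the same limma fit. Ndufa4, which was first assigned to complex I and is now known as a subunit of complex IV, had log2 CPM 6.48 in KO 4 and 6.74 in WT 4, against 7.32, 7.44, 7.03 and 7.45 in KO 1, KO 2, WT 1 and WT 2. This gene too was lower without overlap, with a difference of -0.70 (SE 0.12, adjusted p = 0.000765). Ndufa6, an accessory subunit of the LYR motif family, had log2 CPM 5.59 in KO 4 and 5.75 in WT 4, against 5.27, 5.10, 5.06 and 5.32 in KO 1, KO 2, WT 1 and WT 2, and was higher by 0.49 (adjusted p = 0.00131) with limma, the 2 libraries numbered 4 above the rest. Ndufv3 was higher as well, by 0.29, but its groups overlapped, with KO 4 at 4.83 below WT 2 at 4.86.

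In complex II, succinate dehydrogenase, the 2 membrane anchor genes were lower and the 2 catalytic genes did not pass. Sdhd, an anchor, had log2 CPM 6.74 in KO 4 and 6.88 in WT 4, against 7.26, 7.35, 7.38 and 7.33 in KO 1, KO 2, WT 1 and WT 2, without overlap and with a difference of -0.52 (SE 0.05, adjusted p = 3.25e-05). Sdha, the flavoprotein, had log2 CPM 7.90 in KO 4 and 7.87 in WT 4, against 7.71, 7.76, 7.77 and 7.85 in KO 1, KO 2, WT 1 and WT 2. Its libraries numbered 4 were the highest 2 of the 6, but the difference of 0.11 (adjusted p = 0.0924) was short of the limma threshold. Sdhb, the iron-sulfur protein, had log2 CPM 6.81 in KO 4 and 7.12 in WT 4, against 7.06, 7.18, 6.98 and 7.16 in KO 1, KO 2, WT 1 and WT 2. Here KO 4 was the lowest library while WT 4 lay among the others, and the difference was -0.13 (adjusted p = 0.225) in that fit. It passed in the limma fits without WT 1 or WT 4, at adjusted p = 0.0335 and 0.0306.

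**Figure D2:**
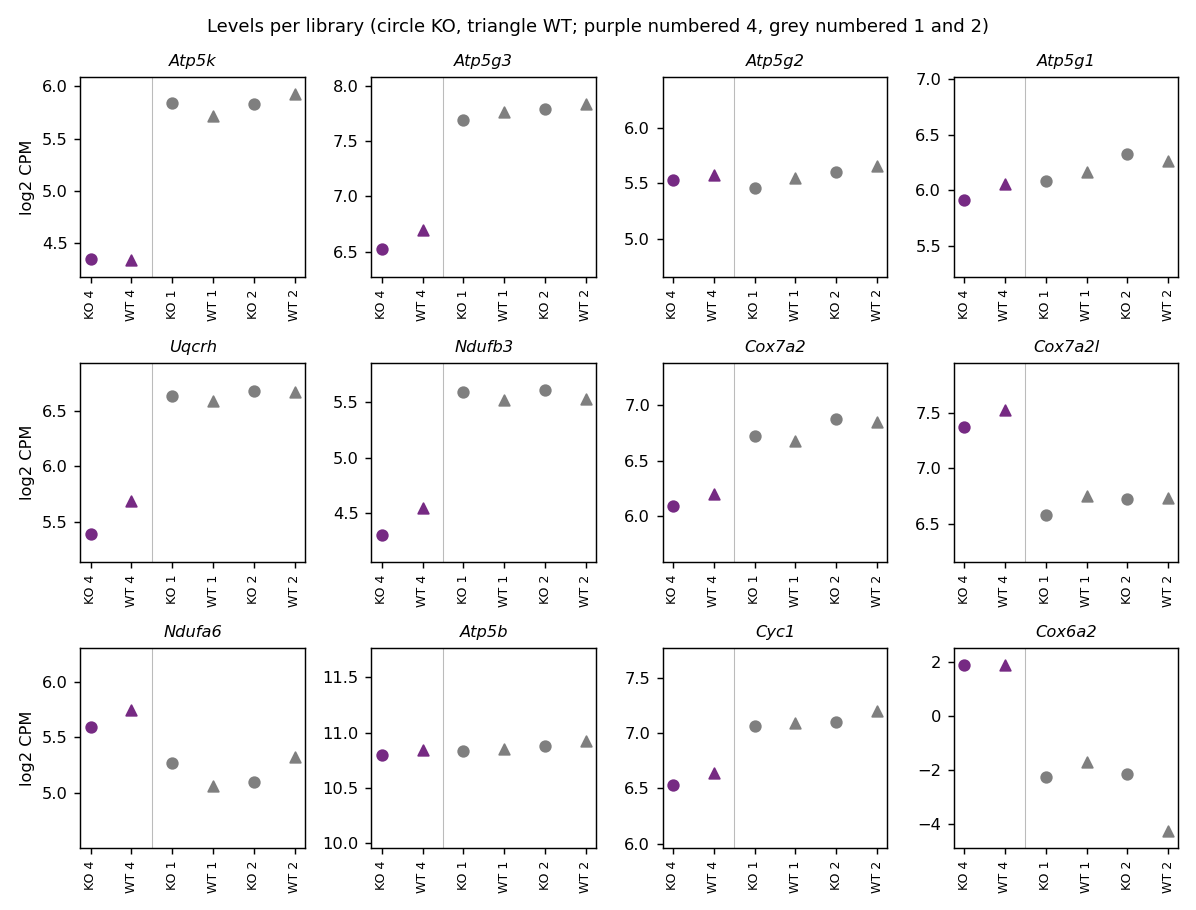
Deposited log2 CPM of 12 members in each library, with KO as circles and WT as triangles, KO 4 and WT 4 in purple at the left and the libraries numbered 1 and 2 in grey. The vertical range differs between panels. Atp5g3 drops in the purple points while Atp5g2 does not, Cox7a2 and Cox7a2l go opposite ways, and Cox6a2 is near 0 reads in the grey points.

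Both libraries numbered 4 lay below all 4 others for 50 of 76 members, or 65.8%, against 37% of all genes tested, and above them for 6, or 7.89%, against 35.8%. A drop of 0.5 or more on the log2 scale was found for 27 members, 35.5%, against 18% of genes. The difference was seen in each genotype, with a median of -0.40 in KO libraries and -0.24 in WT libraries. Over the leave-one-out fits the number of members lower ranged from 38, without KO 4, to 54, without WT 1. The p-values for the library number treat KO 4 and WT 4 as separate samples, although same-numbered libraries deviated together. With the KO and WT library of each number averaged to 1 value, which leaves 1 value against 2, 46 members were lower and 5 higher by limma. The series' sample titles count pools 1 to 3, so what the number 4 stands for is not known, and in bulk RNA a lower level in each cell and fewer cells with the transcript cannot be told apart. Epithelial markers differed between the library numbers as well, 4 of the 7 being lower in the libraries numbered 4, with Krt8 at -1.27, and 2 higher, with Epcam at 0.46; their part in the difference was not tested.

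Levels between genes were compared per length of transcript, as RPKM, the deposited CPM values scaled to each kb of transcript by GENCODE lengths. Atp5b was the highest member, at 942 RPKM in the libraries numbered 4 and 978 in those numbered 1 and 2. Cox8a followed at 348 and 386 RPKM. Ndufb4, a membrane-arm subunit of complex I, was the lowest member tested, at 6.14 and 7.44 RPKM, with 37% of its 50-base words shared with other genes. Over all 6 libraries, the median level by complex was 63.5 RPKM for I, 95.0 for II, 145 for III, 151 for IV and 170.4 for V, against 13.1 over all genes. The order of the subunit c genes in the libraries numbered 4 was Atp5g3, Atp5g2 and Atp5g1, at 137, 107 and 91.8 RPKM. In the libraries numbered 1 and 2 Atp5g3 stood at 306 RPKM, and Atp5g2 and Atp5g1 at 107 and 107.

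The comparison of KO with WT asked whether loss of myosin 1e changes these transcripts. With limma and adjustment over all genes, the adjusted p was 0.9999 for each named member, and 0 members had an unadjusted p under 0.05, against 0.204% of genes. The libraries numbered 4 widen the spread within each genotype, as with Atp5g3, whose mean log2 CPM was 7.34 ± 0.71 in KO and 7.43 ± 0.63 in WT (SD, n = 3 each). By complex, the median KO minus WT difference was -0.06 for I, -0.07 for II, -0.08 for III, -0.07 for IV and -0.04 for V, and -0.01 over all genes. The KO mean was below the WT mean in 33 of 36 genes of complex I, 4 of 4 of II, 8 of 9 of III, 8 of 10 of IV and 14 of 17 of V.

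Within column numbers, 41 of 76 members were lower in KO 1 than in WT 1, 48 in KO 2 than in WT 2 and 69 in KO 4 than in WT 4. Those are 53.9%, 63.2% and 90.8%, beside 50.1%, 50.3% and 53.3% of all genes. The medians were -0.01, -0.03 and -0.14 for the numbers 1, 2 and 4. In complex IV, 10 of 10 genes were lower in KO 4 than in WT 4 with a median of -0.16, while the median was 0.05 for number 1 and -0.03 for number 2. The median over members was -0.01 in the libraries numbered 1 and 2 alone. It was 0.06 when KO 4 was left out of the fit of all libraries, which leaves the number 4 in WT only.

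The largest differences among members were small. Ndufb4 had log2 CPM 2.86, 2.73 and 2.29 in KO 1, KO 2 and KO 4, against 2.97, 2.85 and 2.86 in WT 1, WT 2 and WT 4. KO 4 was its lowest library, and the means were 2.63 ± 0.30 in KO and 2.89 ± 0.06 in WT (SD, n = 3 each), a difference of -0.26 with a limma adjusted p of 0.9999. Ndufv3, a small subunit of the NADH-binding module, had log2 CPM 4.50, 4.75 and 4.83 in KO 1, KO 2 and KO 4, against 4.74, 4.86 and 5.16 in WT 1, WT 2 and WT 4. The ranges overlapped, though KO was lower in 3 of 3 pairs, with differences of -0.24, -0.10 and -0.33. Ndufs8, a core iron-sulfur subunit next to the quinone site, had log2 CPM 5.94, 6.04 and 5.65 in KO 1, KO 2 and KO 4, against 6.13, 6.18 and 5.88 in WT 1, WT 2 and WT 4. It was lower in KO in each pair as well, with differences of -0.19, -0.14 and -0.23. In complex III the largest difference was that of Uqcrq, with log2 CPM 6.52, 6.50 and 6.70 in KO 1, KO 2 and KO 4, against 6.58, 6.60 and 6.93 in WT 1, WT 2 and WT 4. In complex IV it was Cox8a, with log2 CPM 7.62, 7.74 and 7.49 in KO 1, KO 2 and KO 4, against 7.71, 7.85 and 7.67 in WT 1, WT 2 and WT 4. Both were lower in 3 of 3 pairs with ranges that overlapped, and their means differed by -0.13 and -0.12. Atp5l of complex V stood at the other end, with log2 CPM 4.34, 4.45 and 3.92 in KO 1, KO 2 and KO 4, against 4.30, 4.23 and 3.74 in WT 1, WT 2 and WT 4. It was the 1 member of 76 that was higher in KO in 3 of 3 pairs, a pattern found in 15.6% of genes, and 84.8% of its 50-base words are shared with other genes.

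Lower in 3 of 3 pairs were 23 members, 30.3%, against 17% of all genes. Of all 341 genes tested under 700 nt 84 had that pattern, as did 9 of the 36 such members. With the column number as a replicate block, 6 members had an unadjusted p under 0.05, all lower in KO, which is 7.89% against 5.08% of genes lower at that level and 9.91% in either direction. They were Ndufs8, Ndufv3, Ndufb8, Ndufa11, Cox8a and Uqcrq, with KO minus WT differences of -0.19, -0.22, -0.15, -0.18, -0.12 and -0.13. The smallest adjusted p among them was that of Ndufs8, 0.327 in the blocked limma fit. After adjustment over all genes 0 of the 76 passed in that fit, where 1 gene, or 0.00887%, did.

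**Figure D3:**
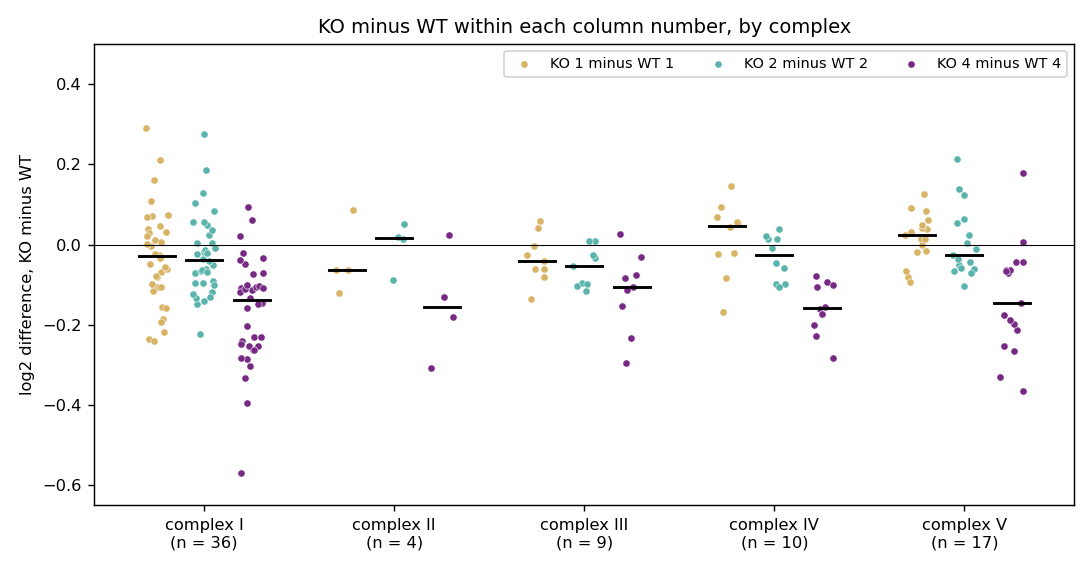
Log2 difference between KO and WT within each column number for the 76 members tested, by complex, with black bars for the medians. For number 4 most points lie below 0, with medians between -0.10 and -0.16, while for numbers 1 and 2 the medians lie between -0.06 and 0.05.

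Whether KO minus WT itself differed between the libraries numbered 4 and the others was tested with an interaction term. It was below 0 for 63 of 76 members, 82.9% against 52.3% of genes, with a median of -0.12. Short genes in general had a like median, at -0.13 over all 341 genes tested under 700 nt and -0.14 over the 36 such members. With limma, 0 members passed after adjustment, nor did any of all genes (0%). The unadjusted p was under 0.05 for 6 members, 7.89% against 3.9% of genes. These were Ndufs5, Sdhb, Atp5md, Uqcrh, Ndufb3 and Cox5b, with interaction terms of -0.41, -0.36, -0.32, -0.32, -0.32 and -0.28. In Sdhb, for example, KO 4 minus WT 4 was -0.31, while the pair differences were 0.09 and 0.02 for the numbers 1 and 2. With 1 library of number 4 per genotype, a difference between KO 4 and WT 4 rests on 2 libraries.

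Transcript length moved with the difference between KO 4 and WT 4. Members are short, with a median of 723 nt against 2836 nt over all genes. Over all 11238 genes with a length, Spearman's rho of length with KO 4 minus WT 4 was 0.368, and 0.173 and 0.108 for the pairs numbered 1 and 2, as descriptions across genes that share libraries. Genes under 700 nt, a limit chosen after the values were seen, had a median KO 4 minus WT 4 of -0.14 over all 341 such genes and -0.16 over the 36 such members. The KO mean was below the WT mean for 233 of those 341 genes and for 29 of those 36 members. A correction of each library for length and GC content left a median KO minus WT of -0.02 over members. Over all genes the library-number difference was less tied to length, with rho 0.075. Over the 76 members the order was reversed, with rho 0.31 for the library-number difference and 0.175 for KO 4 minus WT 4. The median library-number difference of the 341 short genes was -0.07, with 124 of them lower and 72 higher, and that of the 36 short members was -0.36, with 27 lower and 2 higher. With the correction for length and GC content 45 members were lower, and the median over the 76 members was -0.26. How far fragment or transcript length sets these values was not tested further.

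**Figure D4:**
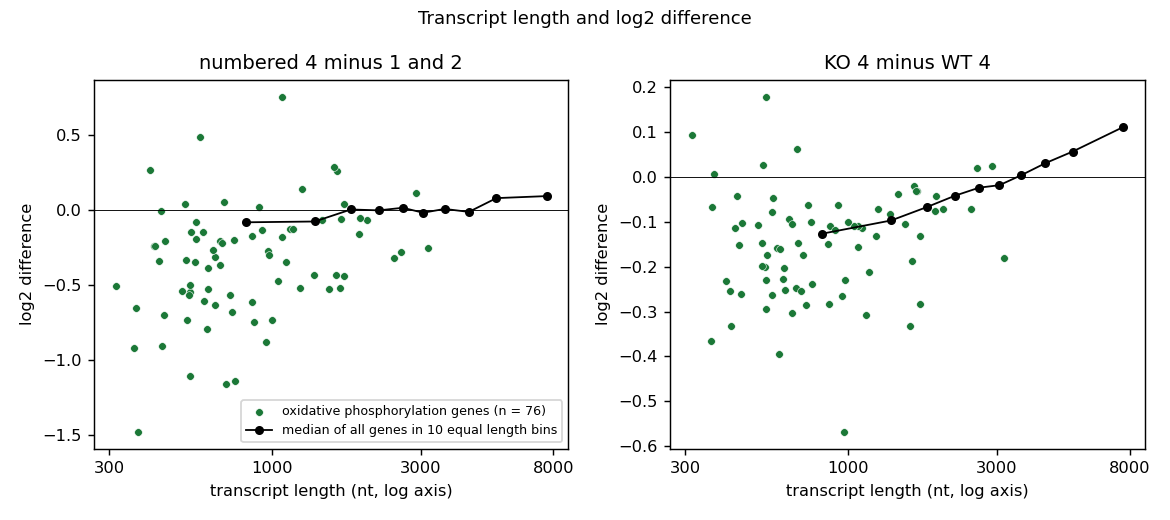
Log2 difference against transcript length for the 76 members (green) and for the median of all genes in 10 bins of equal size (black), for the libraries numbered 4 minus those numbered 1 and 2 (left) and for KO 4 minus WT 4 (right). At right the bin medians climb from -0.13 to 0.11 with length, and 44 of the 76 members lie below the median of their own bin. At left the bin medians stay between -0.08 and 0.09, and 62 of the 76 members lie below theirs.

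Members were also counted by shared sequence. The 31 members without a 50-base word in any other gene had 20 lower and 3 higher in the libraries numbered 4, with a median of -0.37, and a median KO minus WT of -0.07. The 30 tested members with over 10% shared words had 21 lower and 1 higher, with a median of -0.30. For 28 of the 77 members another gene overlaps on the opposite strand. The 49 members tested that overlap none had 31 lower and 4 higher.

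Genes around the complexes were described by list. In each of these lists 0 genes passed the adjusted limma threshold between KO and WT. Of 8 tested genes of the system that the symbol rule does not take, 5 were lower in the libraries numbered 4 and 0 were higher, beside 33.8% and 31.8% of all genes. Cycs, cytochrome c, which carries electrons between complexes III and IV, had log2 CPM 5.89 in KO 4 and 6.11 in WT 4, against 7.01, 6.98, 6.98 and 7.01 in KO 1, KO 2, WT 1 and WT 2. Both libraries numbered 4 were below the rest, with a difference of -0.99 (SE 0.06, adjusted p = 1.84e-06). The ADP/ATP carriers Slc25a4 and Slc25a5, which exchange ATP for ADP over the inner membrane, were lower by limma too, at -0.74 (adjusted p = 9.16e-06) and -0.76 (adjusted p = 3.64e-06). Ndufab1, the acyl carrier protein of complex I, was lower in that fit at -0.26 (adjusted p = 0.0103). Cox4i1, the common form of subunit 4 of complex IV, did not pass at 0.01 (adjusted p = 0.948), nor did Atpif1, the ATP synthase inhibitor, at 0.04 (adjusted p = 0.665), or Higd2a, an assembly factor, at 0.01 (adjusted p = 0.946), in that fit. Cycs, the carriers, Ndufab1 and Cox4i1 were picked after their values were seen.

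The mitochondrially encoded subunits that were tested shared the lower level in the libraries numbered 4 but went the other way between genotypes. Of 13 such subunits 7 were in the table and tested. Absent were mt-Nd3, mt-Nd4l, mt-Co2, mt-Co3, mt-Atp6 and mt-Atp8. Of the 7, 6 were lower in the libraries numbered 4, against 33.8% of all genes, and mt-Co1 did not pass. The median of the 7 was -0.65. mt-Nd4, of the proton-pumping arm of complex I, had log2 CPM 7.88 in KO 4 and 7.77 in WT 4, against 8.35, 8.15, 8.19 and 7.97 in KO 1, KO 2, WT 1 and WT 2. mt-Cytb, the cytochrome b of complex III, had log2 CPM 9.55 in KO 4 and 9.44 in WT 4, against 10.08, 9.92, 9.87 and 9.75 in KO 1, KO 2, WT 1 and WT 2. Neither gene's groups overlapped, and the limma differences were -0.34 (adjusted p = 0.00366) and -0.41 (adjusted p = 0.000629). All 7 were higher in KO than in WT in 3 of 3 pairs, a pattern found in 15.6% of genes, with a median of 0.19, whereas 1 of 76 nuclear members was. None of the 7 passed the limma threshold between genotypes, and mt-Nd4 differed by 0.15 (SE 0.17, adjusted p = 0.9999).

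Assembly factors, which help build the complexes and are no part of them, were called in both directions, beside 33.8% lower and 31.8% higher over all genes. Those of complex I had 8 of 15 lower and 1 higher in the libraries numbered 4, with a median of -0.29. Ndufaf1 was among the 8, at -0.29 (adjusted p = 0.033), and Tmem186 did not pass, at -0.05 (adjusted p = 0.574), by limma. For complex IV, 8 of 21 were lower and 6 higher, and Cox17, the copper chaperone, and Cmc1 did not pass, at -0.37 and 0.12. Complex III had 2 of 6 lower and 1 higher, with Lyrm7 and Bcs1l, which act on the Rieske protein, not past the threshold at -0.28 and 0.11. For complex II 0 of 4 passed, with Sdhaf3 and Sdhaf1 at -0.20 and 0.24. For complex V 1 of 4 was higher, Tmem70, needed for ATP synthase assembly, at 0.28 (adjusted p = 0.0165) in the limma fit, and Fmc1 did not pass at -0.19.

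Of the 13 tricarboxylic acid cycle genes, which supply NADH and succinate, 9 were lower and 3 higher in the libraries numbered 4, with a median of -0.41. Idh3b, of isocitrate dehydrogenase, was among the higher ones at 0.22 (adjusted p = 0.00654), and Suclg2, of succinyl-CoA ligase, did not pass, at -0.08 (adjusted p = 0.244), with limma. Among 11 tested regulators of mitochondrial genes, 2 were lower and 4 higher. Beside both lists, 33.8% of all genes tested were lower and 31.8% higher. Tfam, which packages and transcribes mitochondrial DNA, and Tfb2m, its partner in transcription there, did not pass, at 0.00 (adjusted p = 0.993) and 0.16 (adjusted p = 0.134) in limma. The gene for the factor NRF1 did not pass at 0.03 (adjusted p = 0.669) and Yy1 did not at 0.05 (adjusted p = 0.428), while Gabpa was higher, at 0.29 (adjusted p = 0.00242) by limma. Gabpb1, whose product pairs with that of Gabpa to bind ETS sites, was lower, at -0.26 (adjusted p = 0.0246) in the same limma fit. These 4 were picked because their motifs were searched, Gabpb1 after its value was seen.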

How the data were processed

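RNA-seq was done on 3 KO and 3 WT libraries, from stranded mRNA preparations per the labels' protocols. The deposited table holds log2 CPM values made by the authors. Per the submitters' processing notes, the tools were edgeR, featureCounts, STAR 2.7.3a, Subread 1.6.4 and Trimmomatic 0.39 and the build GRCm38; no source used here gives the annotation, strand setting or normalization. The columns numbered 1 and 2 carry pool numbers found in the sample titles, and those numbered 4 were tied to a genotype only. All values in each library gave whole reads within 0.01 of a read, with a prior near 1 read, which understates changes of low genes. The limit that a count of 0 allows, set at 3 reads, was 0.144 to 0.173 CPM over the libraries and covers counting error only. The deposited values hold a scaling other than the recovered reads. KO 4, with 19560010 recovered reads, had 0.144 CPM for 3 reads, while KO 1, with 19988206, had 0.155. The part of that scaling in the differences was not tested. With median centring the median library-number difference of members was -0.34.

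A gene was tested where 3 or more of the 6 libraries had log2 CPM 0 or above, which left 11269 and dropped 183. limma 3.58.1 with a variance trend, in R 4.3.3, gave two-sided p-values, Benjamini-Hochberg adjusted over all genes tested with a threshold of 0.05, for KO minus WT, for number 4 minus 1 and 2 with genotype as a term, and for their interaction. The submitters describe biological replicates; if the pools are not separate cultures, p-values measure only the spread between these libraries. An exact permutation test of 3 against 3 cannot go below 0.1. Same-numbered KO and WT libraries deviated together from their genotype means (correlations over genes of 0.744, 0.784 and 0.921 for numbers 1, 2 and 4), which was taken as pairing from the data and not from a label. For numbers 1 and 2 alone the support is weaker: KO 1 with WT 2 gave 0.687 and KO 2 with WT 1 gave 0.617. The shift shared by KO 4 and WT 4 moves both genotype means and so enters these correlations. Without the libraries numbered 4, KO 1 minus KO 2 correlated with WT 1 minus WT 2 at 0.256 over genes. The lowest chi-square per degree of freedom between libraries was 4.88, so none is a copy of another.

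Lengths, GC content and 50-base words came from GENCODE vM21, where all 77 members matched, 2 of them by a RefSeq synonym. Named genes were, in each complex, the extremes of both differences, fixed core genes and tissue or paralogous forms, and 2 genes of each other list; the values of 1 of the genes so named are not reported here. Others were chosen after their values were seen: Atp5j2, Atp5mpl, Atp5a1, Atp5j, Uqcr11, Ndufv3, Ndufs8, the members listed by unadjusted p, and those so marked in the text. The members and lists were chosen with earlier results of these data known. Alternatives were other filters, pseudocounts, scalings and variance models, a length and GC correction, a replicate block, fewer libraries, and, added after seeing the data, limma's voom on the recovered reads, same-numbered libraries averaged and members without shared 50-base words.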

Additional observations from a re-analysis of the deposited data

How the results depend on the processing

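The number of genes called between KO and WT was 0, and became 1 with the replicate block and 2 with the replicate block and the length and GC correction, with 0 members called in each of the alternatives run. The pairing changed no call of a member. Leaving out 1 library gave a median KO minus WT over members between -0.156 (without KO 2) and 0.0559 (without KO 4), and -0.14 without WT 4; each leaves the numbers 1, 2 and 4 unequal between genotypes. Of 29 named members tested, 22 changed sign in KO minus WT when 1 library was left out and 10 under 14 other settings, none of them called. The median interaction was -0.0473 with the length and GC correction, against -0.12, and the cause was not tested. For the library number, members called higher were 8 under quantile normalization and 3 to 5 over the leave-one-out fits, against 5, and members called lower were 38 to 54. Atp5b was called higher under quantile normalization, at 0.23, against -0.05 in the deposited scaling; the cause was not tested. Over all 76 members, leaving out 1 library lost the calls of 14 and added 7 in at least 1 fit, with 13 lost without KO 4 and 7 each without KO 2 and WT 4; the other settings lost 7 and added 8. Among the 29 named members, leaving out 1 library lost Atp5g1, Cox6a1 and Uqcrq and added Atp5c1, Cox8a and Sdhb, and the other settings lost Atp5g1 and Cox6a1 and added Cox8a, Ndufb4 and Sdha, beside Atp5b. With same-numbered libraries averaged, 4 calls were lost, among them Atp5g1 (adjusted p = 0.0546) and Cox6a1 (adjusted p = 0.0608) in limma. The replicate block cannot be fitted with the library number, and the interaction was not run without single libraries. Depth limits Cox6a2 most, at 0 to 5 reads in 4 libraries.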
